A study of Mus musculus with 9 samples.

Results

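The collagen and laminin genes were read in single-cell libraries of mouse brain tumors and control brain, and the question for each chain was which cells carried it and whether its level differed between the groups. The members were every gene whose symbol has the form Col, number, a, number or Lam, chain letter, number: 55 of the 32285 mouse genes in the tables, 44 collagen and 11 laminin genes. They were sorted by role into 11 fibrillar collagens, 6 chains of basement membrane collagen IV, 6 of collagen VI, 6 short-chain and anchoring collagens, 9 fibril-associated collagens, 2 multiplexins, 4 transmembrane collagens, 5 laminin alpha, 3 beta and 3 gamma chains. All 55 were detected among the kept cells, where levels rest on UMIs, unique molecular identifiers that each stand for 1 captured RNA molecule.

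Tumors came from 5 mice of genotype NestinCreERT2;Fus1, in which the conditional ZFTA-RELA fusion was switched on by a tamoxifen-inducible Cre driven by Nestin, a gene of neural stem cells, and which had formed ependymomas in the brain. Controls came from 4 brains of NestinCreERT2;TdT mice, which carried the same Cre and an allele labelled TdT, and no fusion UMI was found in them. All 9 mice were 6 to 8 weeks old, and each gave 1 library. The labels do not say whether mice shared a litter, so p-values measure the spread between these samples. Dissociated cells were cleared of myelin and debris over Percoll, stained with DAPI and for the erythroid antigen Ter119, sorted and run with a 10x 5' kit, which counts the 5' end of a transcript, so that levels need no correction for length. After filters 5106 to 9996 barcodes per library were kept, with 8667803 to 54798089 UMIs. The fusion sequence had 0 UMIs in every control and 7, 297, 12, 929 and 465 UMIs in tumors 1 to 5, so tumors 1 and 3 held few fusion transcripts although their labels are those of tumors. Between pairs of the other 8 libraries (control 4 was not compared) 0.21 to 0.45% of the barcodes with most UMIs were shared.

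Collagens are triple helices of 3 alpha chains. Fibrillar collagens such as type I, made of the Col1a1 and Col1a2 chains, form the fibers of connective tissue, while type IV, in vessels mostly built from the Col4a1 and Col4a2 chains, forms the network of basement membranes. Laminins are cross-shaped trimers of 1 alpha, 1 beta and 1 gamma chain that lie in the same sheet and bind integrins. In the brain, basement membranes surround the endothelium and the pericytes and lie under the astrocyte endfeet. Fibrillar collagen is there largely limited to the meninges and to the fibroblasts along large vessels.

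Col4a1 and Col4a2 lie head to head on chromosome 8 (Col4a1 at chr8:11198423-11312826, minus strand, and Col4a2 at chr8:11312805-11449287, plus strand, GRCm38, the build of the files), and their annotated first exons share 22 bases. This stretch is shown because both chains were called higher in the same direction in the vessel wall comparisons below, and its plus strand at chr8:11312805-11312826, with the sequence GGGCGG in capitals, reads as follows.
Col4a1 and Col4a2 start: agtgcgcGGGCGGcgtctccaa
Col5a1 and Col23a1 are 2 of the chains called higher in barcodes with a fusion UMI below, and the 250 bases before the start of each are given from RefSeq (GRCm38.p6, plus strand, Col5a1 at chr2:27886175-27886424 and Col23a1 at chr11:51289670-51289919), again with GGGCGG or its reverse complement in capitals.
Col5a1 upstream: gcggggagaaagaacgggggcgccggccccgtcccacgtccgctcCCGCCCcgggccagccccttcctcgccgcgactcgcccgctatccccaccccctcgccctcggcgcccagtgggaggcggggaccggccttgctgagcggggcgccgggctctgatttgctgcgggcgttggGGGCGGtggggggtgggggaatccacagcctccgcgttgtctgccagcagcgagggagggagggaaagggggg
Col23a1 upstream: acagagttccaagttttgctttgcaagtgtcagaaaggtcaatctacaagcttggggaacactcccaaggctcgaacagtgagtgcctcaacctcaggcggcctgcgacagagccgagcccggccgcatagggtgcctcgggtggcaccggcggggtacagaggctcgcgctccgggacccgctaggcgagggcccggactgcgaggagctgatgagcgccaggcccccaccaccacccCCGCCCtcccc
Windows of 250 bases before to 50 after the start were given for 40 of the 55 members, 44 windows in all. Read on both strands, GGGCGG was present in 26 of those 44 windows and in 35.7% of the 32851 windows of all genes. CCAAT was present in 14 of the 44 windows, against 37.4% of all windows. TATAAA was present in 5 of the 44, against 13.6% of all windows. The kappaB motif was present in 9 of the 44, against 8.46% of all windows. This is a count of letters and names no bound factor.

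Barcodes were assigned to 16 classes by marker genes, none of them a collagen or laminin gene. A class was accepted when at least 3 of its markers were detected and its summed marker UMIs reached 3 times those expected from free RNA. A barcode was called a neuron only when no other class passed. It then needed at least 3 neuron markers and Malat1 at 2 or more times its free RNA level. Neuron markers themselves were not set against free RNA. Endothelial cells were found in both groups, with 44, 38, 36 and 45 barcodes in the controls and 191, 356, 389, 274 and 290 in the tumors. All 10 endothelial markers were detected in the gate in both groups, and their summed level ran from 6654 to 9660 CPM (UMIs of a gene per 1000000 UMIs of the class) in controls and from 10576 to 21010 CPM in tumors. Mural cells, the pericytes and smooth muscle cells of the vessel wall, numbered 28, 119, 92, 85 and 108 in the tumors but only 2, 6, 10 and 8 in the controls, too few for a test there. Fibroblasts were rare in both groups, with 19, 14, 7 and 10 barcodes in controls and 21, 35, 6, 11 and 12 in tumors. A class named only by its genes Igf2, H19 and Dlk1 had no barcode in any control and 17, 635, 116, 1070 and 309 in the tumors. Up to 13.2% of these barcodes held a fusion UMI, in tumor 4. Barcodes with a fusion UMI that were ungated or of a neural progenitor, neuroblast, OPC, ependymal or Igf2-H19-Dlk1 gate formed a further, overlapping class with 1, 225, 12, 790 and 362 barcodes. Values of a class are given only for mice with at least 10 of its barcodes.

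Free RNA carried the same chains, and this touches every class below. Free RNA was approximated by the 3000 lowest barcodes of a library. They held from 468 to 1449 UMIs each, so cells may be among them. In 8 libraries 0 of them were kept cells, but tumor 3 had 9001 barcodes in all, and 2557 of its 3000 were also kept cells, 536 of them gated. Its value is therefore printed but is not one of free RNA, and its gates were set against it. In these barcodes Col4a1 stood at 3.99, 4.1, 4.45 and 3.11 CPM in controls and 40.5, 240.04, 80.8, 166 and 189 CPM in tumors 1 to 5. Col23a1 stood at 4.49, 4.73, 1.59 and 2.34 CPM in controls and 7.41, 341, 39.8, 349 and 49.2 CPM in tumors. Oligodendrocytes, which make no vessel wall, still read Col4a1 at 17.4, 34.9, 0, 5.12 and 58.8 CPM in the tumors. A level of a chain that is no higher than these free RNA values was not read as expression of the class.

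When UMIs were summed over all kept cells of a mouse, the main chains of the vessel basement membrane and several fibrillar chains were higher in tumors, and 8 chains were lower. Of the 55 members, all of which were tested, 22 were higher and 8 lower in tumors by edgeR's quasi-likelihood test (adjusted p under 0.05), where 29.3% of the 18298 genes tested were higher and 27.3% were lower. The share of members higher was 22 of 55, and the median log2 fold change was 0.56 over the members and 0.01 over all genes. The filter on low counts also admits a chain that reached its level in tumors alone or in controls alone. Such chains were not counted apart over all kept cells, so the counts of 22 and 8 are no support by themselves. By role, the higher chains were 6 of 11 fibrillar, 4 of 6 collagen IV, 1 of 6 collagen VI, 1 of 6 short-chain and anchoring, 1 of 9 fibril-associated, 1 of 2 multiplexins, 1 of 4 transmembrane, 3 of 5 laminin alpha, 2 of 3 laminin beta and 2 of 3 laminin gamma chains. In these sums more cells of a type cannot be told apart from more RNA per cell, and the endothelial gate alone went from 0.422 to 0.516% of kept barcodes in controls to 2.74 to 4.83% in tumors.

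Col4a1 stood at 26.03, 26.5, 29.99 and 26.7 CPM in controls 1 to 4 and at 155, 373, 116, 146 and 193 CPM in tumors 1 to 5, a log2 fold change of 3.12 ± 0.39 SE, adjusted p = 0.00033. Its partner Col4a2 went from 45.4, 39.4, 40.8 and 41.9 to 102, 192, 82.4, 87.8 and 100.0 CPM, a log2 fold change of 1.69 ± 0.29 SE, adjusted p = 0.0013. Every tumor lay above every control for both chains, and tumor 2 was the highest for both. Col4a5, a chain that forms a separate type IV network with Col4a3 and Col4a4 or with Col4a6, was far lower, at 1.95, 2.62, 2.65 and 2.08 CPM in controls and 8.19, 8.54, 4.46, 5.31 and 4.44 CPM in tumors, and its log2 fold change was 1.64 ± 0.29 SE, adjusted p = 0.0014. Col4a3 rose by 1.22 ± 0.46 SE, adjusted p = 0.044 on the log2 scale, whereas Col4a4 and Col4a6 had log2 fold changes of 0.37 ± 0.24 SE, adjusted p = 0.22 and 0.56 ± 0.55 SE, adjusted p = 0.41.

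Among laminins the alpha chains of vessel walls and the shared gamma 1 chain were higher. Lama5, which with Lamb1 or Lamb2 and Lamc1 makes the laminins of endothelial and epithelial basement membranes, went from 2.27, 2.16, 2.19 and 2.41 CPM in controls to 5.65, 15.03, 13.01, 13.8 and 9.97 CPM in tumors (log2 fold change 2.64 ± 0.36 SE, adjusted p = 0.00046). Lama4, the other alpha chain of vessel laminins, went from 7.27, 5.78, 5.1 and 6.01 to 11.8, 35.4, 14.99, 16.5 and 18.7 CPM (log2 fold change 1.98 ± 0.37 SE, adjusted p = 0.0019). The groups did not overlap for either chain. Lama2, the alpha chain of the laminin of muscle, pericytes and astrocytes, stood at 6.01, 6.39, 8.24 and 6.34 CPM in controls and 22.04, 11.4, 12.9, 13.1 and 19.9 CPM in tumors, with a log2 fold change of 1.44 ± 0.21 SE, adjusted p = 0.00061. Lamb2, the beta chain of mature vessel laminins, had the smallest p of all members, with 4.27, 5.69, 6.29 and 5.21 CPM in controls, 26.1, 18.8, 40.9, 26.98 and 18.1 CPM in tumors and a log2 fold change of 2.52 ± 0.29 SE, adjusted p = 0.00023. Lamb2 was highest in tumor 3 and Lama2 in tumor 1, the libraries with fewest fusion UMIs. Lamc1 went from 11.1, 12.1, 12.8 and 12.1 to 26.3, 74.4, 32.5, 52.4 and 37.9 CPM (log2 fold change 2.18 ± 0.36 SE, adjusted p = 0.0011), and no tumor overlapped a control. Lamb1 was less clear, since tumor 3, at 6.04 CPM, lay below all 4 controls, whose values were 9.01, 8.53, 8.82 and 9.28 CPM. The other tumors stood at 12.3, 31.2, 17.4 and 18.5 CPM, and the log2 fold change of 1.23 ± 0.43 SE, adjusted p = 0.033 missed the threshold over all barcodes, with the replicate block, without any one of the controls, and without tumor 2 or tumor 5. Lamc3, a gamma chain of brain and choroid laminins, stood at 37.2 and 37.5 CPM in tumors 2 and 4, against 1.99 to 4.10 CPM in the other tumors and 0.948 to 1.15 CPM in controls (log2 fold change 4.35 ± 1.04 SE, adjusted p = 0.0064).

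**Figure D1:**
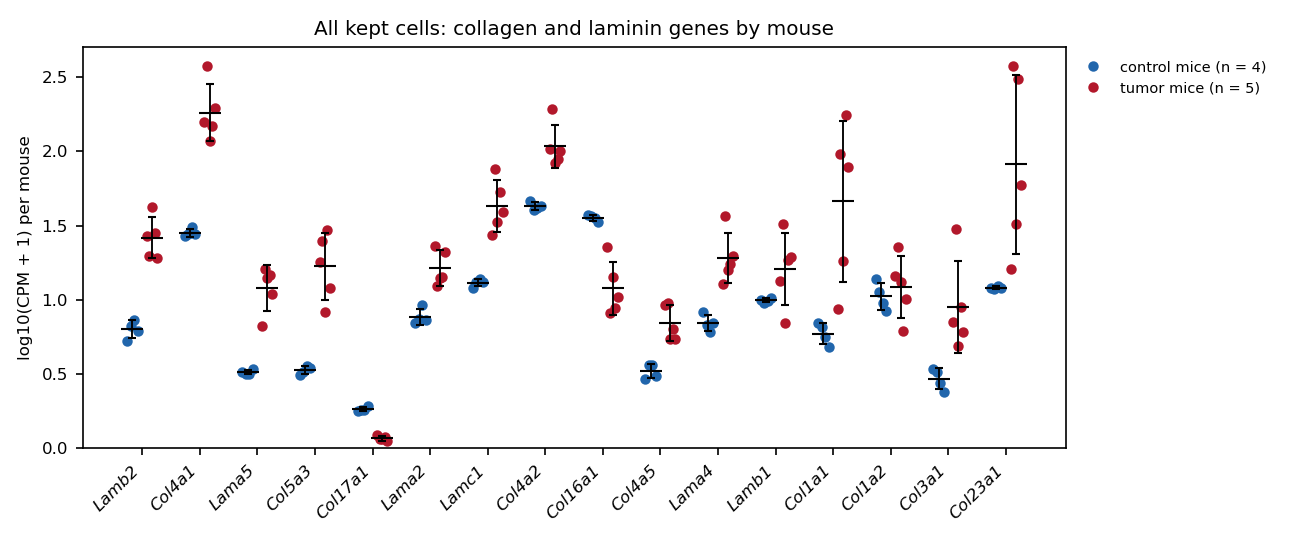
Level of 16 chains in all kept cells of each mouse, as log10(CPM + 1), with control mice in blue (n = 4) and tumor mice in red (n = 5), and the bar and whiskers giving mean and SD of the plotted values. The groups are apart for Col4a1, Col4a2, Lamb2, Lama5, Lamc1 and Col5a3, while the tumors spread from 7.61 to 174 CPM for Col1a1 and from 15.2 to 375 CPM for Col23a1.

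Of the 11 fibrillar chains 6 rose, with a wide spread among the tumors. Col1a1 stood at 5.95, 5.51, 4.64 and 3.78 CPM in controls and at 7.61, 94.2, 17.3, 174 and 77.7 CPM in tumors 1 to 5, a log2 fold change of 4.25 ± 0.90 SE, adjusted p = 0.0035. Its partner Col1a2 stood at 12.7, 10.2, 8.55 and 7.38 CPM in controls and 13.4, 21.8, 12.2, 5.15 and 9.1 CPM in tumors, and its log2 fold change of 0.59 ± 0.37 SE, adjusted p = 0.2 did not pass the threshold. It did pass in both cell filters that follow, with log2 fold changes of 1.43 at a mitochondrial limit of 10% and 1.25 in barcodes with nuclear RNA. Col3a1, the chain of type III fibers, stood at 2.42, 2.25, 1.76 and 1.4 CPM in controls and 6.11, 29.2, 3.87, 8.0 and 5.08 CPM in tumors (log2 fold change 2.73 ± 0.67 SE, adjusted p = 0.0069). Tumor 2 was the highest for Col3a1 and Col1a2 and tumor 4 for Col1a1. Col5a3, a chain of type V collagen, which starts fibrils, went from 2.11, 2.25, 2.61 and 2.5 to 17.1, 23.9, 7.31, 28.5 and 11.1 CPM (log2 fold change 3.16 ± 0.44 SE, adjusted p = 0.00051). Col5a1, Col5a2 and Col2a1 also rose, by 2.69, 2.50 and 1.79 on the log2 scale. Outside the fibrillar group Col23a1, a transmembrane collagen that is shed from the cell surface, went from 10.96, 10.9, 11.5 and 11.01 to 15.2, 375, 31.4, 307 and 58.4 CPM (log2 fold change 4.18 ± 1.01 SE, adjusted p = 0.0067). Col23a1 in tumor 1 was close to the controls and reached over 300 CPM in tumors 2 and 4. Col18a1, the multiplexin of vessel walls that holds endostatin, Col9a3, Col6a3 and Col7a1 rose by 2.27, 1.86, 2.01 and 1.35.

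The 8 lower chains were Col17a1, Col16a1, Col26a1, Col6a4, Col10a1, Col25a1, Col19a1 and Lamb3. Col16a1, a fibril-associated collagen, stood at 36.1, 35.9, 34.4 and 32.2 CPM in controls and 21.6, 7.2, 13.2, 7.87 and 9.4 CPM in tumors, without overlap (log2 fold change -1.38 ± 0.24 SE, adjusted p = 0.0013). Over all barcodes of each library, without the limit to kept cells, its log2 fold change was 0.01. Col17a1, a transmembrane collagen of skin, was rare, at 0.790, 0.822, 0.805 and 0.922 CPM in controls and 0.231, 0.158, 0.146, 0.183 and 0.114 CPM in tumors (log2 fold change -2.07 ± 0.30 SE, adjusted p = 0.00061). Col17a1 may have passed the filter on low counts through the controls alone, so its call is no support. Col25a1 and Col19a1, both of which neurons make, fell by 1.90 and 2.24 on the log2 scale. Neuron-gated barcodes made up 56.0 to 73.7% of kept barcodes in controls and 0.320 to 28.6% in tumors, and the part of that difference in the 8 lower chains was not tested. The count of these lower chains varied widely with the processing, being 1 over all barcodes, 4 with the replicate block and 3 to 13 with 1 mouse left out.

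Among the gated barcodes of the tumors most chains had a class of highest mean level. Ungated barcodes numbered 2199, 3814, 4518, 5561 and 6080 of the 5106, 8659, 8051, 9995 and 9996 kept in tumors 1 to 5. Except for those with a fusion UMI they entered no class level, and none entered the other gated cells. The chains they carried are given no source here. By mean level, counting only classes with at least 10 UMIs of a chain, the highest class was fibroblast for 15 members, mural for 14, neuron for 8, OPC (oligodendrocyte precursor cells) for 6, endothelial, ependymal and neural progenitor for 2 each, and the Igf2-H19-Dlk1 class, microglia or macrophage and neuroblast for 1 each. This ranking names the highest mean and asked for no call. By edgeR 4 members were called higher in neurons and 0 in neuroblasts. Col6a6, Col10a1 and Col17a1 had under 10 UMIs in every gated class and were given no source. In the comparisons of a class with the other gated cells, the filter on low counts admits a chain that reached its level on 1 side alone. This holds for tumors and controls. Such chains were not counted apart, so the counts of members called by class are no support by themselves.

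**Figure D2:**
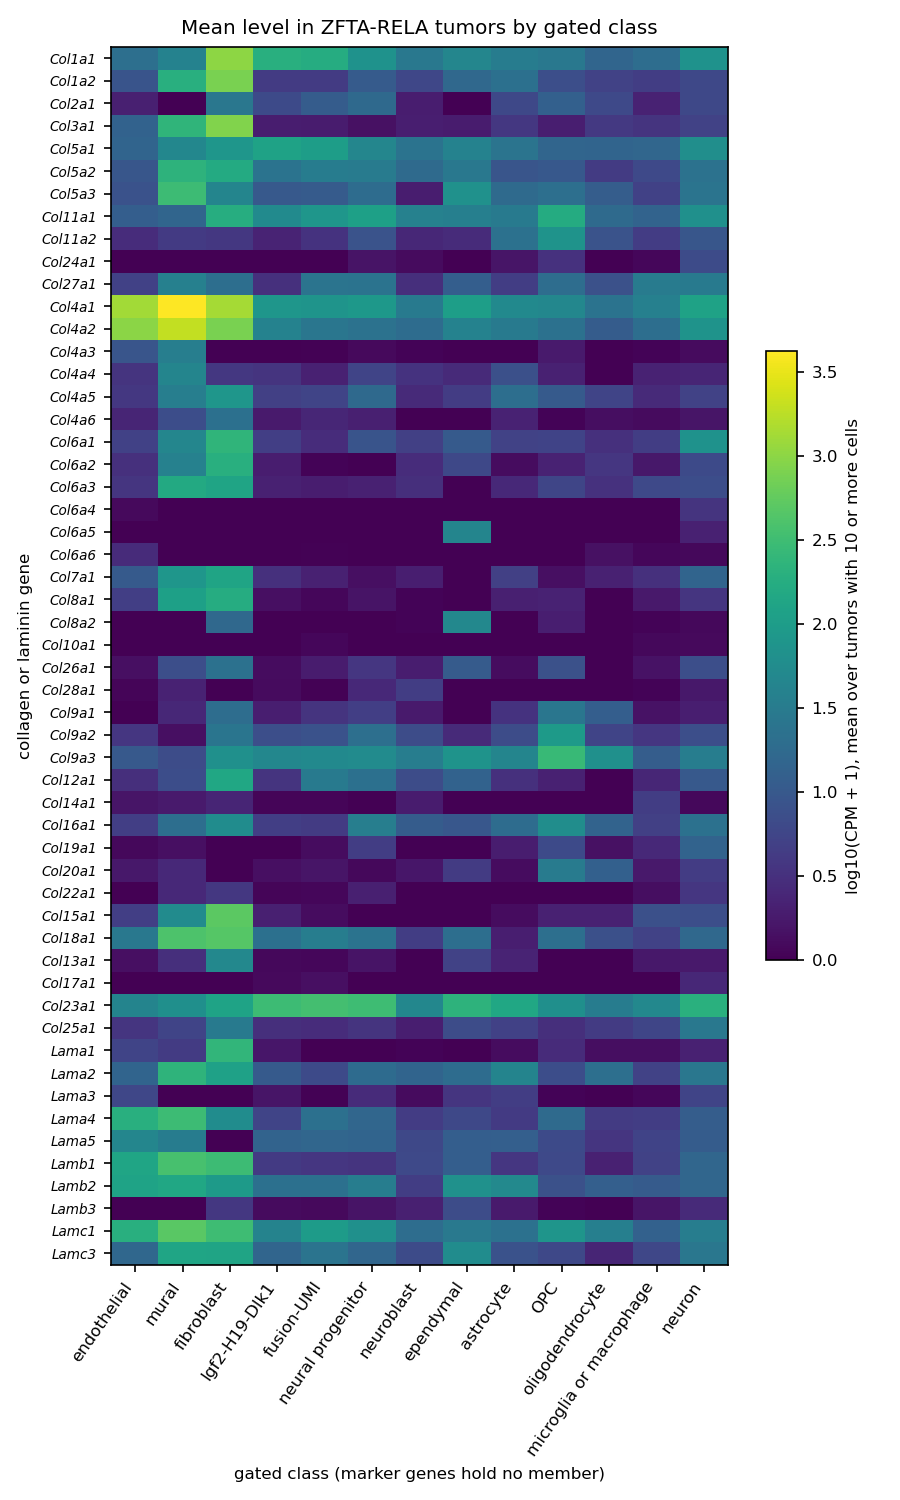
Mean level of the members reported here by gated class in tumors, as log10(CPM + 1) of the mean over tumors with at least 10 barcodes of the class, with genes in rows by role and classes in columns. The brightest cells are Col4a1 and Col4a2 in the mural class, and the fibroblast column is bright for fibrillar and type VI chains.

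Mural cells carried the highest collagen IV level of any class. Of 35 members tested in this comparison, 22 were higher in mural cells than in the other gated cells of the same tumors and 3 were lower, where 8.38% of the 12785 genes tested were higher and 10.9% lower. All 5 type IV chains that could be tested were among the 22. Col4a1 stood at 2184, 6327, 1952, 4821 and 5636 CPM in mural cells of tumors 1 to 5, a mean of 4184 ± 2005 CPM (SD, n = 5) and a log2 difference from the other gated cells of 4.49 ± 0.27 SE, adjusted p = 3.4e-08. Col4a2 stood at 853, 2997, 1023, 2612 and 2377 CPM, with a log2 difference of 3.98 ± 0.30 SE, adjusted p = 3.0e-07. Tumors 2, 4 and 5 were higher than tumors 1 and 3 for both chains. Col18a1 stood at 222, 567, 189.99, 602 and 424 CPM and differed by 4.90 ± 0.27 SE, adjusted p = 1.5e-08. Lamc1 was even across the tumors, at 444, 399.99, 635, 549 and 475 CPM, and differed by 3.64 ± 0.27 SE, adjusted p = 2.2e-07. The mural alpha chains were Lama4, at 119, 336, 178, 385 and 496 CPM, and Lama2, at 154, 173, 189.99, 305 and 318 CPM, with log2 differences of 3.87 ± 0.25 and 4.30 ± 0.28. Lamb1 stood at 51.2, 394, 121, 701 and 559 CPM and Lamb2 at 171, 70.3, 283, 78.97 and 119 CPM. Lamb1 was the higher beta chain in tumors 2, 4 and 5 and Lamb2 in tumors 1 and 3. Col3a1 stood at 34.1, 312, 146, 448 and 233 CPM and Col1a2 at 119, 125, 299, 164 and 250 CPM, while Col1a1 stood at 0, 76.4, 0, 28.2 and 93.2 CPM, with a log2 difference of -0.78 ± 0.45 SE, adjusted p = 0.26 that was not called. Lama5 stood at 0, 20.1, 97.01, 9.4 and 33.9 CPM, with a log2 difference of 1.32 ± 0.50 SE, adjusted p = 0.079, not called except without tumor 4. Fibroblast markers summed to 1348 to 5494 CPM in the mural gate and to 4208 to 32744 CPM in the fibroblast gate, and their part in the fibrillar chains of the mural gate was not tested. Col9a3, Col9a2 and Col11a1 were the 3 lower chains.

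Endothelial cells had a narrower set. Of 31 members tested, 7 were higher in the endothelial gate than in the other gated cells of the same tumors and 14 were lower, where 16.0% of the 12912 genes tested were higher and 21.6% lower. The 7 were the 2 main type IV chains, Lama4, Lama5, Lamb1, Lamb2 and Lamc1, that is every chain of the laminins that endothelium is known to make with the alpha 4 and alpha 5 chains. Col4a1 stood at 1038, 1904, 715, 1182 and 1659.7 CPM (log2 difference 3.0 ± 0.20 SE, adjusted p = 8.7e-07) and Col4a2 at 719, 1345, 557, 1111 and 1140.2 CPM (3.53 ± 0.19 SE, adjusted p = 2.0e-07). Lama4 stood at 97.3, 272, 93.1, 231 and 262 CPM (3.93 ± 0.21 SE, adjusted p = 1.8e-07) and Lamc1 at 133, 256, 107, 225 and 244 CPM (2.38 ± 0.22 SE, adjusted p = 1.3e-05). Tumors 2, 4 and 5 again exceeded tumors 1 and 3 for all 4 chains. Lama5, at 24.9, 34.8, 64.8, 58.7 and 43.5 CPM, had its highest level in tumors 3 and 4 and differed from the other gated cells by 2.58 ± 0.24 SE, adjusted p = 1.4e-05. Lamb1 stood at 45.6, 207, 15.2, 188 and 205 CPM (2.81 ± 0.30 SE, adjusted p = 3.0e-05). Fibrillar collagen was low, with Col1a1 at 4.14, 27.2, 2.02, 34.6 and 31.99 CPM, Col1a2 at 8.28, 6.58, 0, 3.26 and 20.5 CPM and Col3a1 at 0, 22.5, 1.01, 28.04 and 11.5 CPM. Of tumors 1, 2, 4 and 5, these lay below the free RNA of the same tumor in 4 for Col1a1, 3 for Col1a2 and 2 for Col3a1.

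Mural and endothelial cells of the same 5 tumors were then compared directly, a comparison added once the class levels had been seen. Of 20 members tested, 16 were higher in mural cells and none lower by edgeR, where 8.37% of 6992 genes tested were higher and 9.53% lower, and no member had an unadjusted p under 0.05 in the other direction. The filter on low counts also admits a chain that reached its level in mural cells alone. Such chains were not counted apart, so the count of 16 is no support by itself. Col4a1 was higher in mural cells by 1.60 ± 0.16 SE, adjusted p = 0.00011 on the log2 scale and Col4a2 by 0.91 ± 0.18 SE, adjusted p = 0.004. The difference was larger for Lama2, at 4.28 ± 0.36 SE, adjusted p = 5.7e-05, for Col3a1, at 4.29 ± 0.34 SE, adjusted p = 3.9e-05, and for Col18a1, at 3.84 ± 0.33 SE, adjusted p = 6.0e-05. Lamb1 and Lamc1 were higher by 1.56 ± 0.30 SE, adjusted p = 0.0039 and 1.39 ± 0.26 SE, adjusted p = 0.0035. For Lama4 the difference was small, 0.65 ± 0.18 SE, adjusted p = 0.03, and was not called without tumor 3, 4 or 5. Lama5 had a log2 difference of -0.70 ± 0.44 SE, adjusted p = 0.35, and was called lower in mural cells only when tumor 3 was left out. Mural cells numbered 28 to 119 per tumor against 191 to 389 endothelial cells, and the endothelial gate held 44.9% of the Col4a2 UMIs of all gated tumor cells against 34.1% in mural cells. For Col4a1 the order was mural, with 41.2%, then endothelial, with 34.1%.

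**Figure D3:**
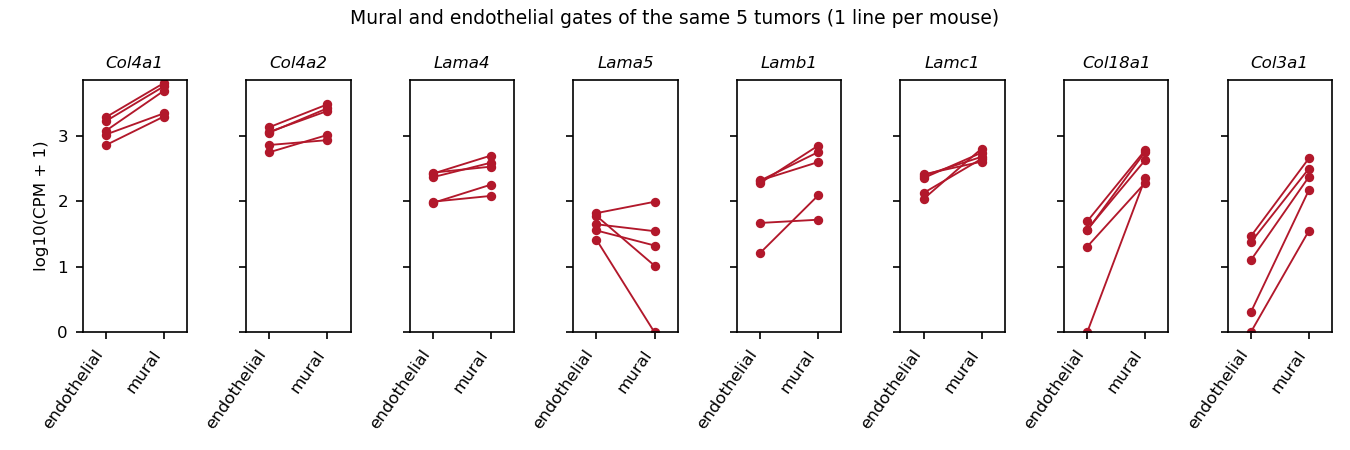
Level of 8 chains in the endothelial and mural gates of the same tumors, as log10(CPM + 1), with 1 line for each of the 5 mice. Lines rise in every tumor for Col4a1, Col4a2, Lama4, Lamb1, Lamc1, Col18a1 and Col3a1 and fall in 4 of 5 tumors for Lama5.

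Fibroblasts held the highest mean levels of Col1a1, Col1a2, Col3a1, Col6a1 and Col6a2. Tumor 3, with 6 barcodes, was left out, and in the other 4 tumors 23 of 35 members tested were higher in fibroblasts than in other gated cells and 0 lower by edgeR (1 at an unadjusted p under 0.05), where 2.64% of the 12356 genes tested were higher and 3.25% lower. Col1a1 stood at 362, 987, 2136 and 601 CPM in tumors 1, 2, 4 and 5 (log2 difference 4.08 ± 0.42 SE, adjusted p = 8.9e-20). Col1a2 stood at 622, 1349.9, 433 and 761 CPM (6.22 ± 0.45 SE, adjusted p = 4.4e-40) and Col3a1 at 452, 1789, 866 and 361 CPM (6.43 ± 0.46 SE, adjusted p = 4.0e-40). Tumor 2, with 35 barcodes, was highest for Col3a1 and Col1a2 and tumor 4 for Col1a1. The gate also held Col4a1 at 158, 2814, 1001 and 1483 CPM and Col4a2 at 67.8, 1539.7, 792 and 761 CPM, with log2 differences of 1.62 ± 0.39 and 1.64 ± 0.40, neither of which was called without tumor 2 or with 4 markers, and Col4a2 was also lost with DESeq2 and without tumor 4. Mural markers summed to 329 to 1572 CPM in this gate, against 8196 to 36435 CPM in the mural gate, and their part in its type IV level was not tested. Lama1, the alpha chain of the first laminin of the embryo and of the meningeal surface, stood at 22.6, 130.1, 358 and 441 CPM in fibroblasts, against at most 4.57 CPM on average in the other classes shown, with a log2 difference of 7.80 ± 0.58 SE, adjusted p = 2.4e-37. Lama1 may have passed the filter through fibroblasts alone, so its call is no support. Among the 23 were also the 3 tested type VI chains, which form beaded microfilaments, namely Col6a1, Col6a2 and Col6a3, with differences of 4.11, 5.73 and 3.62, and both multiplexins, Col15a1 and Col18a1, with 5.87 and 3.76.

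The Igf2-H19-Dlk1 class, found only in tumors, carried 3 chains above the other gated cells and few others. Of 35 members tested 3 were higher and 18 lower, where 14.2% of the 13866 genes tested were higher and 23.3% lower. Col23a1 stood at 61.1, 653, 215, 414 and 155 CPM in tumors 1 to 5 (log2 difference 2.22 ± 0.30 SE, adjusted p = 0.00018). Col1a1 stood at 26.2, 221, 162, 345 and 191 CPM (2.72 ± 0.38 SE, adjusted p = 0.00024) and Col5a1 at 69.8, 91.5, 104, 166 and 183 CPM (2.43 ± 0.26 SE, adjusted p = 4.2e-05). Tumor 1, with 17 barcodes and no fusion UMI in this class, was lowest for all 3. The same class was low for the partner of Col1a1, as Col1a2 stood at 0, 5.87, 5.05, 3.48 and 2.04 CPM, lower than in the other gated cells by 2.07 ± 0.33 on the log2 scale (adjusted p = 0.00055), and Col3a1 stood at 0, 1.87, 0, 2.9 and 0 CPM. Vessel wall chains were lower too, with Col4a1 at 17.4, 109, 83.4, 74.6 and 106 CPM, Lama4 at 0, 10.4, 2.53, 4.92 and 4.77 CPM and Lamb1 at 0, 6.67, 0, 6.08 and 2.73 CPM. Free RNA of the same library held more Col4a1 than this class in tumors 1, 2, 4 and 5 and 80.8 CPM in tumor 3. Lamc1 was not called, at 34.9, 79.5, 15.2, 42.6 and 32.7 CPM.

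Barcodes with a fusion UMI gave the same 3 chains and Col11a1. In tumors 2 to 5, 4 of 36 members tested were higher than in the other gated cells and 17 lower, where 8.07% of the 14260 genes tested were higher and 19.1% lower. Col23a1 stood at 606, 290.3, 392 and 80.8 CPM (1.12 ± 0.23 SE, adjusted p = 0.001), Col1a1 at 195, 122, 254 and 132 CPM (1.12 ± 0.18 SE, adjusted p = 7.0e-05) and Col5a1 at 77.9, 91.7, 134 and 108 CPM (0.98 ± 0.17 SE, adjusted p = 0.00013). Col11a1, a fibrillar chain of cartilage and of developing neural tissue, stood at 123, 30.6, 141 and 18.9 CPM (0.66 ± 0.18 SE, adjusted p = 0.0098) and was not called by DESeq2 or without tumor 2. The other gated cells of this comparison included Igf2-H19-Dlk1 barcodes with no fusion UMI. The fusion class shares barcodes with the Igf2-H19-Dlk1 class, so it is no second sample of cells. Neural progenitors of the tumors had 4 of 31 members higher, where 5.32% of 12838 genes were higher: Col23a1 at 0, 727, 164, 467 and 186 CPM (1.53 ± 0.31 SE, adjusted p = 0.0031), Col11a1 at 0, 166, 117, 247 and 35.1 CPM (1.42 ± 0.35 SE, adjusted p = 0.013), Col16a1 at 30, 11.5, 79.5, 32.03 and 18.9 CPM (1.37 ± 0.35 SE, adjusted p = 0.013) and Col4a5 at 22.5, 15, 21.2, 18.3 and 5.4 CPM (1.44 ± 0.40 SE, adjusted p = 0.022). Col23a1 in this class again was lowest in tumor 1.

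The 2 chains of type I collagen were thus unequal between classes, which was read as the share of Col1a1 among the UMIs of both. Fibroblasts of the tumors had 378 Col1a1 and 366 Col1a2 UMIs, a share of 50.8% (95% exact binomial interval 47.1 to 54.5%, which covers counting error only). Mural cells had 75 and 289, or 20.6% (16.6 to 25.1%). The Igf2-H19-Dlk1 class had 3557 and 51, or 98.6% (98.1 to 98.9%), and the fusion-UMI class 2024 and 34, or 98.3% (97.7 to 98.9%). By tumor the share in the Igf2-H19-Dlk1 class was 97.4, 97.0, 99.0 and 98.9% in tumors 2 to 5. In the fibroblast gate it was 36.8, 42.2 and 44.1% in tumors 1, 2 and 5 but 83.1% in tumor 4, the tumor with most Igf2-H19-Dlk1 barcodes. Free RNA of the tumors had a share of 80.2%, against 30.9% in controls, and its part in the fibroblast gate of tumor 4 was not tested. Over all kept cells the share was 91.3% in tumors and 34.1% in controls. For the type IV pair the share of Col4a1 was 67.1% in mural cells, 56.3% in endothelial cells and 63.9% in fibroblasts of the tumors, and in the endothelial gate of controls it was 60.6% (52.7 to 68.1%) on 165 UMIs. Fibroblast marker genes were low in the Igf2-H19-Dlk1 class, with Dcn at 2.45 CPM against 2467 CPM in the fibroblast gate and Lum at 0.871 against 987 CPM, although Islr, at 48.1 CPM against 363 CPM, and Mgp, at 45.7 against 9692 CPM, were the highest of the 10 fibroblast markers there.

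**Figure D4:**
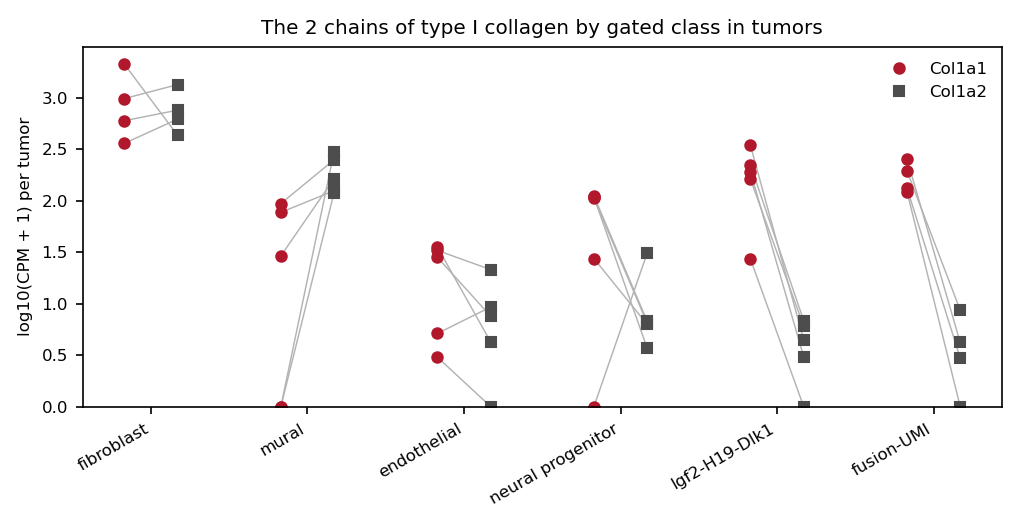
Col1a1 (red circles) and Col1a2 (gray squares) in 6 gated classes of the tumors, as log10(CPM + 1), with a line joining the 2 chains of 1 tumor and only tumors with at least 10 barcodes shown. In fibroblasts Col1a1 lies below Col1a2 in tumors 1, 2 and 5 and above it in tumor 4, in mural cells Col1a2 lies above Col1a1, and in the Igf2-H19-Dlk1 and fusion-UMI classes Col1a1 lies above Col1a2 in every tumor shown.

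In tumors 8 of 34 members tested were higher in OPCs than in the other gated cells and 19 lower (9 without tumor 4), where 8.84% of 13264 genes were higher and 17.0% lower. The 8 were the 3 chains of type IX collagen, Col9a1, Col9a2 and Col9a3, which coat fibrils of types II and XI, together with Col11a1, Col11a2, Col2a1, Col16a1 and Col20a1. Col9a3 stood at 269, 355, 274, 294 and 189.6 CPM (3.04 ± 0.24 SE, adjusted p = 2.2e-08) and Col11a1 at 67.2, 355, 84.8, 209 and 137 CPM (1.93 ± 0.26 SE, adjusted p = 1.1e-05). Col9a2 stood at 26.9, 239.9, 50.1, 128 and 15.8 CPM (3.79 ± 0.39 SE, adjusted p = 6.0e-07) and Col11a2 at 40.3, 10.4, 177, 66.5 and 57.9 CPM (3.53 ± 0.40 SE, adjusted p = 2.1e-06). Every tumor was above every control for Col9a3, whereas Col9a2 and Col11a1 were highest in tumor 2 and Col11a2 in tumor 3. In the OPC gate of controls Col9a3 stood at 30.3, 53.8, 30.5 and 45.8 CPM and Col11a1 at 30.3, 108, 20.3 and 30.5 CPM. Tumor against control within this gate 3 members passed the filter, of which 2 were higher, where 22.2% of 2971 genes were higher: Col9a3, which reached the filter's level in tumors alone, so its call is no support, by 2.64 ± 0.34 SE, adjusted p = 5.3e-05, and Col11a1, by 1.72 ± 0.55 SE, adjusted p = 0.019. Col11a1 reached the filter's level in 4 of 5 tumors but 1 of 4 controls, so its call is no support either. The Col11a1 difference was not called with free RNA subtracted, with 4 markers, with 5000 barcodes, at a mitochondrial limit of 10% or without control 3 or 4. Neuron markers summed to 4972 to 5390 CPM in the OPC gate of controls and to 93.8 to 1062 CPM in that of tumors, and their part in the difference was not tested.

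Other glia held a few chains each. Astrocytes of the tumors had 5 of 32 members higher, where 14.1% of 12789 genes were higher, so the share of members was near that of all genes. Among the 5 were Lamb2 at 66.02, 27.3, 70.3, 48.1 and 33.1 CPM (0.89 ± 0.22 SE, adjusted p = 0.0039) and Lama2 at 41.3, 27.3, 55.04, 43.5 and 43.6 CPM (1.52 ± 0.24 SE, adjusted p = 0.00011). Lama2 is the alpha chain of the laminin that astrocytes lay down at their endfeet, and its partners there, Lamb1 and Lamc1, were lower in astrocytes than in the other gated cells, by -3.31 ± 0.41 SE, adjusted p = 8.0e-06 and -1.33 ± 0.23 SE, adjusted p = 0.00028 on the log2 scale. Col11a2 stood at 27.5, 24.3, 22.9, 16.03 and 17.04 CPM (1.64 ± 0.36 SE, adjusted p = 0.002) and Col4a5 at 27.5, 6.08, 10.7, 32.1 and 19.9 CPM (2.07 ± 0.39 SE, adjusted p = 0.00057), and Col4a4 was the fifth chain. Ependymal cells, of which tumors 1, 2, 4 and 5 gave 18, 37, 23 and 13, had 3 of 34 members higher, where 7.82% of 12937 genes were higher, again a share near that of all genes. Col8a2, a short-chain collagen known from basement membranes of cornea, stood at 92.7, 17.6, 6.64 and 73.1 CPM there (6.34 ± 0.72 SE, adjusted p = 6.1e-15). Col8a2 may have passed the filter through this gate alone, so its call is no support. Lamb2 stood at 39.7, 49.3, 99.6 and 83.6 CPM (1.42 ± 0.39 SE, adjusted p = 0.0028) and Lamc3 at 0, 113, 113 and 0 CPM (1.65 ± 0.45 SE, adjusted p = 0.0026), the latter not called by DESeq2, with 4 markers or without tumor 2 or 4. Microglia or macrophages had 1 of 33 members higher, where 20.9% of 14031 genes were higher, and 29 lower, where 29.4% were lower. That chain was Col27a1, a fibrillar collagen, at 65.8, 8.29, 43.1, 18.9 and 19.9 CPM (1.57 ± 0.32 SE, adjusted p = 0.0029), of which tumor 1 was the highest. Neurons had 4 of 34 members higher, where 27.3% of 12991 genes were higher. Col6a1 stood at 65.6, 58.5, 178, 0 and 47.7 CPM (2.92 ± 0.46 SE, adjusted p = 0.0005), Col25a1 at 63.6, 14.9, 16.1, 0 and 41.5 CPM (2.54 ± 0.33 SE, adjusted p = 0.00016), Col19a1 at 23.04, 24.3, 8.7, 4.5 and 6.19 CPM (3.67 ± 0.47 SE, adjusted p = 0.00014) and Col16a1 at 36.3, 18.9, 29.8, 4.5 and 17.3 CPM (0.97 ± 0.27 SE, adjusted p = 0.012), the last not called without tumor 1 or 2. Col25a1 is a membrane collagen of neurons that binds amyloid, and its level was highest in tumor 1. By edgeR 0 members were higher in oligodendrocytes (31 tested, where 12.7% of genes were higher), neuroblasts (35 tested, 12.2%), lymphocytes (31 tested, 2.51%) and erythroid barcodes (33 tested, 1.02%). The members higher at an unadjusted p under 0.05 numbered 0, 0, 0 and 0 in these classes, in that order, and DESeq2 called 0, 0, 0 and 0.

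In control brain the classes that could be read were partly others. Mural cells reached 10 barcodes in 1 control only and choroid plexus epithelium in 1 tumor only, so sources were not compared between the groups. By mean level the highest class in controls was neuron for 22 members, fibroblast for 11, endothelial for 6 and choroid plexus epithelium for 5. It was neuroblast for 4, microglia or macrophage for 3, and OPC and astrocyte for 2 each. Endothelial cells had 8 of 45 members higher than the other gated cells, where 11.6% of 15452 genes were higher. Col4a1 stood at 123, 197, 204 and 129.8 CPM in controls 1 to 4 (2.22 ± 0.21 SE, adjusted p = 1.8e-24) and Col4a2 at 61.4, 84.4, 124 and 129.8 CPM (0.97 ± 0.22 SE, adjusted p = 0.00012). Lamb2, at 81.9, 84.4, 98.9 and 86.5 CPM (4.26 ± 0.36 SE, adjusted p = 4.6e-31), was as high as Lamc1, at 71.6, 56.3, 136 and 76.9 CPM (2.77 ± 0.31 SE, adjusted p = 5.1e-17). Lama4, Lama5, Lama2 and Lamc3 were the other 4, and Lamb1, with 5 UMIs in all controls, was not called (-0.25 ± 0.73 SE, adjusted p = 0.84). Fibroblasts of controls 1, 2 and 4 had 14 of 46 members higher, where 4.60% of 15320 genes were higher. Col1a2 stood at 1045, 423 and 519.7 CPM (6.13 ± 0.31 SE, adjusted p = 2.4e-85), Col1a1 at 467, 270.1 and 229 CPM (6.05 ± 0.47 SE, adjusted p = 5.3e-35), Col6a2 at 279.9, 258 and 229 CPM (4.64 ± 0.44 SE, adjusted p = 1.2e-23) and Col8a1 at 411, 176 and 62.4 CPM (4.98 ± 0.52 SE, adjusted p = 3.0e-19). All were highest in control 1, and without control 2 none of the 14 was called. Choroid plexus epithelium, which lines the folds that make cerebrospinal fluid, had 11 of 47 members higher, where 12.5% of 15439 genes were higher. Col9a3 led, at 207, 247, 170.1 and 185 CPM (4.03 ± 0.20 SE, adjusted p = 2.2e-90). Col8a1 stood at 79.8, 60.6, 77.6 and 46.3 CPM (3.96 ± 0.33 SE, adjusted p = 3.5e-30), Col8a2 at 31.9, 41.98, 38.8 and 14.5 CPM (5.19 ± 0.49 SE, adjusted p = 8.1e-24) and Col4a4 at 15.96, 51.3, 26.9 and 17.4 CPM (3.86 ± 0.47 SE, adjusted p = 1.5e-14). At a mitochondrial limit of 10% 3 of the choroid chains were called. Col4a3, Col4a4 and Col4a5, which make up the type IV network of filtering epithelia, were all among the 11.

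Control glia and neurons held the remaining chains. Neurons had 17 of 47 members higher, where 34.6% of 16058 genes were higher, so the share of members was near that of all genes. The most abundant were Col11a1, at 61.9, 69.3, 71.98 and 55.6 CPM (2.02 ± 0.10 SE, adjusted p = 2.3e-20), Col4a2, at 56.04, 55.7, 56.1 and 56.5 CPM (1.14 ± 0.10 SE, adjusted p = 3.2e-13), Col16a1, at 44.5, 53.2, 50.4 and 44.1 CPM (1.29 ± 0.11 SE, adjusted p = 1.6e-13), and Col25a1, at 45.7, 47.9, 51.3 and 48.5 CPM (0.48 ± 0.10 SE, adjusted p = 9.5e-05). Free RNA of the controls held Col4a2 at 13.97, 8.2, 10.8 and 11.2 CPM. Neuroblasts had 3 of 46 members higher, where 1.77% of 15441 genes were higher, namely Col25a1 at 90.7, 167, 43.2 and 265 CPM (1.57 ± 0.19 SE, adjusted p = 1.1e-14), Col19a1 at 60.5, 167, 15.7 and 166 CPM (2.25 ± 0.24 SE, adjusted p = 5.4e-18) and Col14a1 at 30.2, 50.5, 15.7 and 39.6 CPM (3.94 ± 0.50 SE, adjusted p = 6.9e-13). Col19a1 was not called by DESeq2 in these cells. Astrocytes had 4 of 47 higher, where 15.5% of 15568 genes were higher. Lama2 stood at 56.98, 27.9, 24.9 and 29.9 CPM (2.23 ± 0.29 SE, adjusted p = 4.5e-13) and Col11a2 at 35.6, 40.3, 21.5 and 36.1 CPM (1.89 ± 0.27 SE, adjusted p = 6.8e-11). Lamb2 stood at 21.4, 12.4, 13.3 and 12.6 CPM (1.60 ± 0.41 SE, adjusted p = 0.0005) and Col4a5 at 0, 6.2, 11.6 and 4.72 CPM (1.73 ± 0.58 SE, adjusted p = 0.0098), and each of these was also called in tumor astrocytes. At a mitochondrial limit of 10% fewer members were called in control astrocytes. Microglia had 3 of 47 higher, where 25.0% of 15856 genes were higher, led by Col27a1 at 82.2, 39.5, 82.5 and 65.5 CPM (3.42 ± 0.16 SE, adjusted p = 1.2e-93), with Col15a1 at 7.83, 13.8, 7.0 and 12.4 CPM (1.52 ± 0.33 SE, adjusted p = 1.8e-05) and Col6a3 at 7.83, 6.42, 4.2 and 3.39 CPM (1.51 ± 0.48 SE, adjusted p = 0.0044). OPCs had 3 of 45 higher, where 1.59% of 15321 genes were higher, namely Col27a1 at 30.3, 61.5, 71.2 and 53.4 CPM (2.62 ± 0.46 SE, adjusted p = 1.7e-06), Col11a2 at 0, 30.7, 91.5 and 53.4 CPM (2.19 ± 0.48 SE, adjusted p = 0.00026) and Col9a1 at 30.3, 23.1, 10.2 and 7.63 CPM (3.09 ± 0.89 SE, adjusted p = 0.014). In this gate of the controls neuron markers, at 4972 to 5390 CPM, exceeded its own 8 markers, at 2715 to 3635 CPM, and the estimated fraction of free RNA was 0.687 to 0.733, so the gate is named by its rule and the part of neuronal RNA in these 3 calls was not tested. Fewer members were called in it at a mitochondrial limit of 10%. Neural progenitors had 1 of 46 higher, where 1.39% of 15720 genes were higher. It was Col23a1, at 0, 160.03 and 0 CPM in controls 2 to 4 (1.94 ± 0.59 SE, adjusted p = 0.03), and it changed sign with DESeq2 and without control 3. By edgeR 0 of 45 members in oligodendrocytes, where 8.93% of genes were higher, and 0 of 47 in erythroid barcodes, where 10.3% were higher, were called, with 1 and 0 at an unadjusted p under 0.05 and 0 and 0 called by DESeq2.

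Within the endothelial gate Col4a1, Col4a2, Lama4 and Lamc1 were higher in tumors than in controls. Of the 55 members 7 passed the filter on low counts, and 5 of these were higher in tumors, where 12.8% of the 7333 genes tested were higher. Lamb1 reached the filter's level of 20.7 CPM in tumors alone, so its call is no support; the other 6 reached it in both groups, and 4 of those were higher. By edgeR 0 members were lower, where 13.6% of genes were, and 0 had an unadjusted p under 0.05 in that direction, with 0 called by DESeq2. Col4a1 went from the control values above, 163 ± 43.02 CPM (SD, n = 4), to 1299.5 ± 479 CPM (SD, n = 5), a log2 fold change of 3.11 ± 0.36 SE, adjusted p = 0.00051. The lowest tumor, tumor 3 at 715 CPM, lay above the highest control, control 3 at 204 CPM. Col4a2 went from 99.8 ± 32.5 CPM (SD, n = 4) to 974 ± 325 CPM (SD, n = 5), a log2 fold change of 3.37 ± 0.36 SE, adjusted p = 0.00044, with no overlap. Lama4 stood at 61.4, 35.2, 43.3 and 43.3 CPM in controls and at 97.3, 272, 93.1, 231 and 262 CPM in tumors (log2 fold change 2.22 ± 0.44 SE, adjusted p = 0.0037), so tumors 1 and 3 were the closest to the controls. Lamb1 stood at 10.2, 14.1, 0 and 9.61 CPM in controls, on 1, 2, 0 and 2 UMIs, and at 45.6, 207, 15.2, 188 and 205 CPM in tumors (log2 fold change 4.12 ± 1.00 SE, adjusted p = 0.01). This fold rests on the 5 control UMIs. Lamc1 rose least, from 71.6, 56.3, 136 and 76.9 CPM to 133, 256, 107, 225 and 244 CPM (log2 fold change 1.29 ± 0.36 SE, adjusted p = 0.02), and tumors 1 and 3 overlapped control 3. Lama5, at 40.9, 14.1, 43.3 and 24.03 CPM in controls and 24.9, 34.8, 64.8, 58.7 and 43.5 CPM in tumors, had a log2 fold change of 0.72 ± 0.40 SE, adjusted p = 0.2, and Lamb2, at 81.9, 84.4, 98.9 and 86.5 and 93.2, 70.5, 281, 73.04 and 104 CPM, one of 0.57 ± 0.40 SE, adjusted p = 0.32. Neither was called, and for both the groups overlapped.

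**Figure D5:**
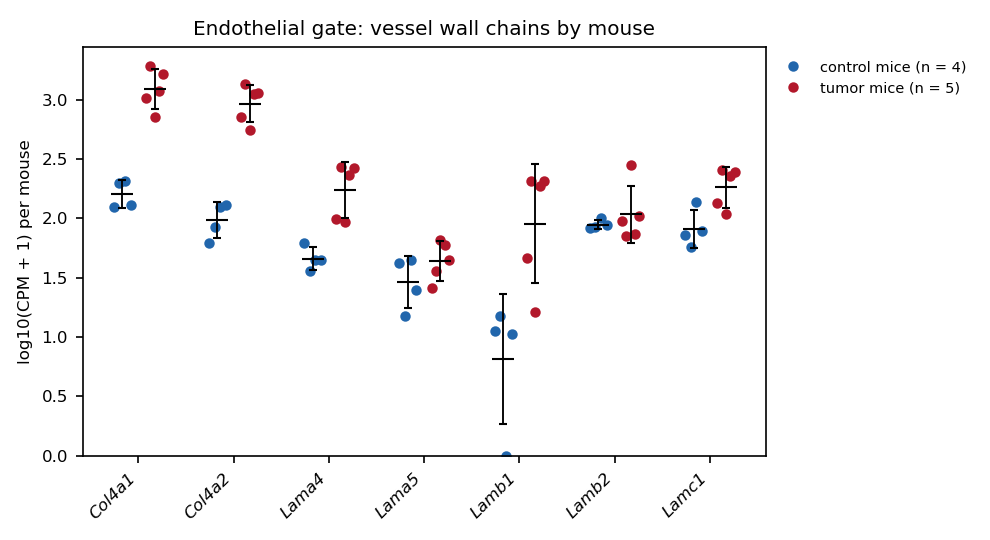
Level of the 7 tested chains in the endothelial gate of each mouse, as log10(CPM + 1), with control mice in blue (n = 4), tumor mice in red (n = 5), and bar and whiskers giving mean and SD of the plotted values. Col4a1, Col4a2, Lama4 and Lamb1 are apart between the groups, while Lama5, Lamb2 and Lamc1 overlap.

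The control gate held 36 to 45 barcodes and an estimated fraction of free RNA of 0.401 to 0.548, against 0.206 to 0.289 in tumors. With this share of free RNA subtracted, Col4a1 still differed by 2.63 and Col4a2 by 3.0 on the log2 scale, and Lama4 was still called. Lamb1 was called too, but its call is no support, since it reached the filter's level in tumors alone. Lamc1 was not called then, with 0.87 (adjusted p = 0.14 by edgeR), nor, with no subtraction, with the replicate block or without control 1, 2 or 4. With the subtraction and without tumor 3, all 5 chains were called, of which Lamb1 again is no support. Mural markers in the endothelial gate summed to 56.7 to 1405 CPM in tumors and 1730 to 2150 CPM in controls, so they were lower in the tumors. Fibroblast markers summed to 99.8 to 1384 CPM in tumors and 111 to 288 CPM in controls. Neuron markers, from which the fraction of free RNA was estimated, summed to 78.9 to 1036 CPM in tumors and 2845 to 4228 CPM in controls. Beyond the subtraction, the part of these cells in the result was not tested.

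Fibroblasts could be compared in 4 tumors and 3 controls, with 10 to 35 barcodes each. Of 13 members that passed the filter 6 were higher in tumors, where 4.26% of 1151 genes tested were higher. The 6 were the basement membrane chains Col4a1, Col4a2, Lamb1, Lamc1 and Col18a1, with the fibrillar chain Col3a1. All but Col3a1 reached the filter's level of 149.4 CPM in tumors alone, and Col3a1 reached it in 4 of 4 tumors but 1 of 3 controls. The 6 calls and their count are therefore no support for a change of the members. Col4a2 stood at 18.7, 23.5 and 20.8 CPM in controls 1, 2 and 4, on 1, 2 and 1 UMIs, and at 67.8, 1539.7, 792 and 761 CPM in tumors 1, 2, 4 and 5 (log2 fold change 5.01 ± 1.04 SE, adjusted p = 0.024). Col4a1 stood at 93.3, 70.5 and 104 and 158, 2814, 1001 and 1483 CPM (3.82 ± 0.88 SE, adjusted p = 0.027). Tumor 1 was the nearest to the controls for both chains, and no tumor overlapped a control. Col3a1 stood at 168, 93.96 and 104 and 452, 1789, 866 and 361 CPM (2.74 ± 0.63 SE, adjusted p = 0.027) and Lamc1 at 37.3, 35.2 and 41.6 and 56.5, 466, 403 and 321 CPM (2.89 ± 0.75 SE, adjusted p = 0.042). Lamb1 stood at 0, 11.7 and 0 and 33.9, 352, 388 and 441 CPM and Col18a1 at 18.7, 11.7 and 0 and 33.9, 802, 672 and 361 CPM, and since the controls held 0, 1 and 0 and 1, 1 and 0 UMIs of them no fold is given. The fibrillar pair Col1a1 and Col1a2 had log2 fold changes of 1.53 ± 0.59 SE, adjusted p = 0.11 and 0.16 ± 0.48 SE, adjusted p = 0.85. Mural markers summed to 329 to 1572 CPM in the fibroblast gate of tumors and to 58.7 to 333 CPM in that of controls, and neuron markers to 336 to 801 CPM in tumors and 2537 to 3950 CPM in controls. The part of these cells in the result was not tested beyond the subtraction of free RNA. With free RNA subtracted none of the 6 was called, and 4 of them were lost with the replicate block. The counts without 1 mouse ran from 0 to 7.

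Col4a1 was called higher in tumors in 4 further gates, but in astrocytes and neural progenitors it reached the filter's level in tumors alone, so these 2 calls are no support. In microglia or macrophages Col4a1 reached that level in 4 of 5 tumors and 2 of 4 controls. In astrocytes it stood at 7.12, 3.1, 1.66 and 9.43 CPM in controls, on 1, 1, 1 and 6 UMIs, and 22.01, 115, 24.5, 50.4 and 43.6 CPM in tumors (log2 fold change 3.15 ± 0.63 SE, adjusted p = 0.0012). In microglia or macrophages it stood at 3.91, 11.01, 11.2 and 4.52 CPM in controls and 21.1, 65.2, 7.19, 29.6 and 59.4 CPM in tumors (log2 fold change 2.75 ± 0.69 SE, adjusted p = 0.0088). In neural progenitors it stood at 29.5, 11.4 and 13.3 CPM in controls 2 to 4 and 37.5, 111, 79.5, 97.9 and 97.2 CPM in tumors (log2 fold change 2.29 ± 0.58 SE, adjusted p = 0.012), not called without control 4, and in neurons at 31, 36.1, 41.5 and 35.6 CPM in controls and 176, 168, 72.04, 67.5 and 115 CPM in tumors (log2 fold change 1.75 ± 0.32 SE, adjusted p = 0.003). In tumors 1, 2, 4 and 5 the level in astrocytes, microglia and progenitors lay below that of free RNA of the same library, and so did the level in neurons of tumors 2, 4 and 5, whereas neurons of tumor 1 lay above it. With free RNA subtracted, Col4a1 no longer passed the filter in astrocytes, microglia and progenitors, and 0 members were called higher there by edgeR, with or without tumor 3. The subtraction is void in neurons and neuroblasts, since the fraction was estimated from neuron markers and came to more than 1 in some of their tumor gates. Whether the rise of Col4a1 differed between gates was not tested.

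Further calls were made in these gates and in neuroblasts. Astrocytes had 3 of 6 members tested higher, where 18.5% of 6920 genes were higher, the others being Lamb2, at 21.4, 12.4, 13.3 and 12.6 CPM in controls and 66.02, 27.3, 70.3, 48.1 and 33.1 CPM in tumors (log2 fold change 1.82 ± 0.38 SE, adjusted p = 0.0015), and Col9a3 (log2 fold change 1.21 ± 0.31 SE, adjusted p = 0.0067). Lamb2 also reached the filter's level in tumors alone, so its call is no support. Col9a3 reached that level in 5 of 5 tumors but 1 of 4 controls, so its call is no support either. Microglia had 1 of 7 higher, where 24.5% of 10608 genes were higher, and 1 lower, where 21.6% were lower. The lower chain was Col25a1, at 17.6, 35.8, 12.6 and 25.99 CPM in controls and 13.5, 2.21, 2.87, 1.1 and 3.99 CPM in tumors (log2 fold change -2.14 ± 0.59 SE, adjusted p = 0.014). Col25a1 reached the filter's level there in 4 of 4 controls but 1 of 5 tumors, so its call is no support. It was not called without control 2, at a mitochondrial limit of 10%, or with free RNA subtracted and without tumor 3. In neuroblasts, where 28.7% of 5252 genes were higher and 26.5% lower, Col25a1 was the only member tested and reached the filter's level in controls alone, so its call as lower is no support. It stood there at 90.7, 167, 43.2 and 265 CPM in controls and 0, 0, 0 and 4.06 CPM in tumors 2 to 5. Neural progenitors had 1 of 5 higher, where 17.9% of 3584 genes were higher, and that was Col4a1. Neurons had 15 of 33 higher, where 14.8% of 13263 genes were higher, and 1 lower, where 10.3% were lower. Of the 15, Col2a1, Col5a3 and Lama5 reached the filter's level in tumors alone, so their calls are no support. Lamb2 reached that level in 5 of 5 tumors but 1 of 4 controls, so its call is no support either. Of the other 30, with Lamb2 among them, 12 were higher. Lamb2 stood in neurons at 2.91, 4.38, 3.82 and 3.39 CPM in controls and 12.5, 16.2, 7.45, 22.5 and 14.2 CPM in tumors (log2 fold change 1.89 ± 0.27 SE, adjusted p = 0.00074), below the free RNA of the library in tumors 2, 4 and 5. Lama5 stood at 2.5, 2.51, 2.03 and 2.67 CPM in controls and 5.47, 12.2, 7.45, 13.5 and 13.01 CPM in tumors (log2 fold change 1.98 ± 0.30 SE, adjusted p = 0.00098), below the free RNA in tumors 1, 2 and 4. Fibrillar chains were among the 15, with log2 fold changes of 2.86 for Col5a3, 2.18 for Col5a2, 1.98 for Col5a1 and 3.75 for Col1a1, and so were Lamc1, with 1.37, and Col23a1, with 3.72. The lower chain was Col16a1, one of the 8 lower over all kept cells, at 44.5, 53.2, 50.4 and 44.1 CPM in controls and 36.3, 18.9, 29.8, 4.5 and 17.3 CPM in tumors (log2 fold change -1.06 ± 0.28 SE, adjusted p = 0.019), with every tumor below every control, and it was not called with the replicate block or without control 2 or 3. With the replicate block 5 members were called higher in neurons. The 12 neuron markers summed to 877 to 6182 CPM in the neuron gate of tumors and 5454 to 6168 CPM in that of controls, and the part of this spread in the calls was not tested. Neurons numbered 32 barcodes in tumor 4, against 506 or more in the other tumors and 4580 or more in controls.

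Genes whose products process, bind and degrade these proteins were read beside them. In all kept cells, where 29.3% of all genes were higher and 27.3% lower, 10 of 13 other matrix proteins were higher in tumors, and the first 3 by p were Fn1 (fibronectin), by 3.29 ± 0.24 SE, adjusted p = 6.4e-05, Hspg2 (perlecan, a proteoglycan of basement membranes), by 3.82 ± 0.34 SE, adjusted p = 0.00013, and Sparc, which binds collagen, by 1.92 ± 0.22 SE, adjusted p = 0.00024 on the log2 scale. Of 28 processing genes, 27 were tested and 15 were higher and 2 lower. They were led by Tgm2, a transglutaminase that cross-links matrix, by 3.29, Plod1, a lysyl hydroxylase, by 2.69, and Serpinh1, the collagen chaperone HSP47, by 4.16 ± 0.59 SE, adjusted p = 0.00054. Of 16 receptors 11 were higher and 2 lower, led by Sdc4, a syndecan, by 3.28, Itga1, the alpha 1 integrin that binds collagen IV, by 3.01, and Ddr2, a receptor of fibrillar collagen, by 2.88. Of 22 degradation genes and inhibitors, 19 were tested and 12 were higher and 2 lower, led by Ctsl, a cathepsin, by 2.15, Mmp14, a membrane metalloproteinase, by 3.45, and Adamts1 by 2.73.

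In the endothelial gate the same lists were smaller after the filter, and 12.8% of all genes were higher and 13.6% lower. Among 9 tested matrix proteins 5 were higher and 1, Vtn (vitronectin), was lower in tumors, with Fn1 at 1.81 ± 0.25 SE, adjusted p = 0.00081, Sparc at 1.93 and Hspg2 at 1.87. Of 11 processing genes 4 were higher, among them Ppib, a prolyl isomerase of the collagen-folding complex, at 1.49, Serpinh1 at 2.24 ± 0.44 SE, adjusted p = 0.0038 and Plod1 at 1.98. Of 7 receptors 2 were higher, Sdc4 at 2.76 and the beta 1 integrin Itgb1 at 1.22, and of 10 degradation genes 5 were higher, with the proteases Adamts1 at 2.23, Adamts9 at 4.17 and Adam10 at 0.89. Adamts9 may have passed the filter through tumors alone, so its call is no support. Genes of these lists that passed through 1 side alone were not counted apart in any comparison, so the counts are no support by themselves. Against the other gated cells of the tumors, mural cells had 11 of 12 tested matrix proteins higher, where 8.38% of all genes were, of which Vtn is itself a marker of the mural gate, with Nid1 (nidogen, which links laminin to collagen IV) at 4.56 and Hspg2 at 3.31. Their leading processing genes were Loxl2, at 4.75, Serpinh1, at 2.93, and Loxl3, at 3.99, the first and last being lysyl oxidases that cross-link collagen, and Itga1 led the receptors at 4.78. Fibroblasts were led by Pcolce, which helps cut fibrillar procollagen, at 5.66, Fbn1 (fibrillin), at 5.20, and Timp1, an inhibitor of metalloproteinases, at 4.83. The Igf2-H19-Dlk1 class had 1 of 13 matrix proteins higher, where 14.2% of all genes were, and 9 lower, where 23.3% were, among them Fn1 at -2.67. Of its processing genes Serpinh1 was higher by 0.84 ± 0.16 SE, adjusted p = 0.0023, and of its receptors Ddr1, an epithelial collagen receptor, by 1.60 ± 0.19 SE, adjusted p = 7.7e-05.

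Several other members were low over all kept cells. Col24a1, Col22a1, Col28a1, Col13a1, Lama3 and Col6a5 ranged in mean level over all kept cells of tumors from 0.544 to 1.45 CPM and were not called there. Lama3 and Lamb3 are laminin chains of skin, and Lamb3 fell by 1.06 on the log2 scale. Col6a5 had most of its gated tumor UMIs, 62.5% of 32, in ependymal cells, and Col14a1 had 88.5% of 104 in microglia or macrophages. Col12a1, a fibril-associated collagen, was highest in fibroblasts of both groups, at a mean of 145 CPM in tumors and 159.7 CPM in controls. Col13a1, a transmembrane collagen of neuromuscular junctions, and Col15a1 were highest in tumor fibroblasts too, at 47.3 and 512 CPM.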

How the data were processed

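Single-cell 5' RNA libraries of 5 tumors and 4 control brains were analysed. The authors made the deposited counts, whole UMI counts per gene and barcode aligned to mm10, with Cell Ranger 6.1.2 per the file headers (the labels name Cell Ranger 7 and Scanpy 1.8.2). No normalization or pooling had been applied. Control 4 listed 80865 of the 80887 barcodes and 32287 of the 32289 features of its matrix. Its mouse genes were in the same order as in the other libraries, and its shared barcodes were not counted. From these, the 10000 barcodes with most UMIs per library were read, and those with 200 to 6000 genes and up to 20% mitochondrial UMIs were kept. A barcode was placed in a class when at least 3 distinct markers were detected and the summed UMIs of its markers passed a limit. The limit was 3 times the expectation from the 3000 lowest barcodes, read as free RNA (Poisson p under 0.0001). Neurons were gated last, by at least 3 markers and by Malat1 at 2 or more times its free RNA level. Barcodes in which a second class scored above 0.5 of the first were dropped, 15 to 119 per library, which also served as the treatment of doublets. Barcodes with a weaker second class were kept. UMIs were summed per mouse and class, with at least 10 barcodes, and compared in edgeR 4.0.16 under R 4.3.3 by quasi-likelihood F, TMM-scaled and filtered by filterByExpr, with Benjamini-Hochberg adjustment over all genes tested. Classes were compared with the other gated cells of the same mice with the mouse as a block. SE is the log2 fold change divided by the root of F. The script was tested on simulated data.

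The members and lists were chosen with earlier results of these data known. Values were printed for up to 10 called members per tumor-control comparison by p that kept direction with each mouse left out, for up to 4 called members per class by UMIs, for 9 vessel wall and fibrillar chains in any case, and for up to 3 genes of each other list. Alternatives were DESeq2 1.42.0, no filter, other limits on barcodes, markers and mitochondrial share, the replicate block, each mouse left out and, chosen after seeing the data, barcodes with nuclear RNA and free RNA subtraction. Oligodendrocytes and erythroid barcodes had no member past the filter between tumor and control. The values of 1 member are not reported here.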

Additional observations from a re-analysis of the deposited data

Results flagged for a closer look

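Among 42 groups of per-mouse levels tested for a sample far from the others with Dixon's criterion, 2 had one, and chance gives about 1 in 20 groups. Both were tumor 2 over all kept cells. Col3a1 stood at 29.2 CPM there against 8.00 CPM in the nearest tumor, a gap of 0.837 of the group's range. Col4a2 stood at 192 CPM against 102 CPM in the nearest tumor, a gap of 0.817 of the range. Without tumor 2 the log2 fold changes of tumors over controls were 1.82 for Col3a1 and 1.39 for Col4a2, and edgeR still called both.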

How the results depend on the processing

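Counts of members called higher that moved by over 1.5 times were as follows, and the causes were not tested. Without the filter on low counts, which tests more genes, tumor classes gave 1 in lymphocytes, 2 in microglia, 1 in neuroblasts, 12 in neurons and 2 in oligodendrocytes, and tumor against control gave 7 in OPCs, 11 in fibroblasts, 8 higher and 1 lower in endothelial cells, 13 in astrocytes, 5 higher and 4 lower in microglia, 8 in neural progenitors, 4 higher and 9 lower in neuroblasts and 2 lower in neurons. At a mitochondrial limit of 10% control OPCs gave 1, astrocytes 2 and choroid epithelium 3. With 4 markers control erythroid barcodes gave 2 and oligodendrocytes 1. DESeq2 gave 0 in control neural progenitors. Tumor against control in OPCs gave 1 with 4 markers, with 5000 barcodes, at a mitochondrial limit of 10% and with free RNA subtracted, and fibroblasts, astrocytes, microglia, neural progenitors and, where the subtraction is void, neurons (higher and lower) and neuroblasts (lower) gave 0 with free RNA subtracted, with 3 lower in microglia. With the subtraction and without tumor 3, a setting chosen after seeing the data, the higher counts were 0 in these gates, 1 in OPCs and 5 in endothelial cells and the lower counts 0 in microglia, 1 in neurons and 2 in neuroblasts. Astrocytes gave 0 with 5000 barcodes and at a mitochondrial limit of 10%, at which microglia gave 0 lower and neurons 2 lower, and neuroblasts gave 2 lower with 30 cells and 0 with 4 markers. Lower chains over all kept cells numbered 1 over all barcodes.

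With the replicate block, all kept cells gave 17 higher and 4 lower, endothelial cells 4 higher, fibroblasts 2 higher, microglia 2 higher, neural progenitors 5 higher and neurons 5 higher and 0 lower. The correlations of same-numbered samples ran from -0.08 to 0.24 over all kept cells and from -0.02 to 0.09 in endothelial cells. These values cannot settle whether same-numbered samples were paired, which the labels do not say. With 1 mouse left out, members higher ran from 19 to 23 over all kept cells (lower 3 to 13), 4 to 5 in endothelial cells, 0 to 7 in fibroblasts, 1 to 2 in OPCs, 2 to 5 in astrocytes, 1 to 3 in microglia (lower 0 to 2), 0 to 5 in neural progenitors, 0 in neuroblasts (lower 1 to 3), 9 to 18 in neurons (lower 0 to 3) and 11 to 19 between mural and endothelial cells (lower 0 to 1, the 1 without tumor 3). Lower counts by class in tumors ran from 9 to 19 in OPCs, the 9 without tumor 4, from 2 to 3 in mural cells, and within 1.5 times in the other classes named. By class in tumors members higher ran from 15 to 24 in fibroblasts, 2 to 4 in neural progenitors, 4 to 7 in neurons, 0 to 1 in lymphocytes and 0 to 1 in oligodendrocytes. In controls members higher ran from 0 to 14 in fibroblasts, 6 to 11 in choroid epithelium, 1 to 2 in OPCs, 0 to 1 in neural progenitors and 0 to 1 in oligodendrocytes.

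The following log2 differences changed sign. Col16a1 over all barcodes had a log2 fold change of 0.0098. In control endothelial cells against other gated cells Col1a1 had -0.050 with DESeq2, -0.013 without the filter and -1.08 to 0.43 with 1 control left out (-0.21 without control 1 and -1.08 without control 2), and Lamb1 had -0.61 to 0.19 (0.19 without control 3). Col23a1 in control neural progenitors had -0.76 with DESeq2 and -10.37 to 2.51 with 1 control left out, the lowest without control 3. Col3a1 in tumor endothelial cells had -0.63 to 0.11 with 1 tumor left out and was above 0 without tumors 1, 2 and 3. With free RNA subtracted and without tumor 3, Lama5 had -0.0317 in endothelial cells and, where the subtraction is void, Lama5 had -0.0315 and Lamc1 -1.48 in neurons. Classes of 10 to 45 barcodes limit what could be detected in fibroblasts, control endothelium and control OPCs.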
